A study of Mus musculus with 19 samples.

Results

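The genome of the yolk sac endoderm held large stretches in which fewer than 50% of the reads at CpG dinucleotides were methylated, and these weakly methylated domains are described here. The genome was cut into windows of 100 kb, and a window entered when each of 6 bisulfite libraries had at least 200 reads at its CpGs. A window was counted as a domain window when the mean methylation of the 2 libraries of E12.5 visceral yolk sac endoderm (ysE) lay below 50%. The 13526 eligible windows lay on 16 chromosomes, namely 1 to 12, 14 and 16 to 18. Of them, 1025 windows, or 7.58%, met this rule and covered 102.5 Mb. Because the windows were chosen by their ysE methylation, the ysE levels are a description and carry no test. The levels in liver and cystic EBs, the gene and repeat content and the RNA were not used to choose them.

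In mammals most CpGs outside promoters and enhancers carry a methyl group on the cytosine, placed by the de novo enzymes of the Dnmt3 family and copied at each replication by Dnmt1. In some tissues, placenta, tumours and cultured cells among them, methylation is partly lost over long gene-poor stretches called partially methylated domains, which often lie in late replicating chromatin. The extraembryonic lineages, to which the yolk sac endoderm belongs, are known for lower methylation than the embryo proper. Bodies of transcribed genes and retrotransposons of the IAP class usually stay methylated, and H3K4me3, a mark of active and poised promoters, goes together with unmethylated CpG-rich DNA.

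The study set embryoid bodies with a fluid-filled cavity (cystic EBs), grown from mouse ES cells, beside the yolk sac endoderm and the fetal liver, to compare the endoderm of cystic EBs with both. For bisulfite sequencing, ysE and fetal liver, both of E12.5, came from FVB and CAST F1 litters of both cross directions (CxF and FxC), with 1 library per direction and a litter pooled in each. The d15 cystic EBs of this assay came from 1 ES cell clone per direction, so a cystic EB library is 1 clone. RNA-seq covered FVB embryos, namely E12.5 ysE (1 library), E9.25 ysE (2), E9.25 mesoderm of the visceral yolk sac (VYS) (2) and E12.5 liver (2), and cystic EBs at d10 and d15 from a pair of ES cell lines (A and B) of mixed C57Bl/6 and 129 background. The layers of the VYS were parted by hand after enzyme treatment, and the mesoderm layer includes the vasculature and the basement membrane. H3K4me3 was mapped in 1 library of whole E12.5 VYS with its input, so its peaks are those of both layers and have no replicate. No group is labelled with a treatment or a deletion, and the groups differ in tissue, stage, strain and, for RNA, library protocol.

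Depth was low, with 6695942 to 11554658 reads at CpGs per bisulfite library and a median of 1 read per call, so reads were summed over a window. A domain window held a median of 251 to 495 reads per library. A strand difference touches each level given here. Calls on the plus strand were 99.2% to 99.5% methylated in each library, and calls on the minus strand 47.0% and 56.8% in ysE, 68.4% and 69.8% in liver, beside 75.8% and 81.2% in cystic EBs. In domain windows plus-strand calls gave a median of 17.3% and 17.0% of the ysE reads (CxF and FxC) and 26.2% to 30.9% in the other libraries, against 27.1% to 34.2% over the 6 libraries in the other windows. On the minus strand alone the ysE medians were 37.3% and 30.4% in domain windows and 60.5% and 51.9% in the other windows, against 48.0% and 42.2%, and 71.5% and 64.9%, on both strands. Since so few plus-strand calls are unmethylated, the levels printed here are probably too high, and the 50% threshold holds only on their scale. Chromosome 4 stood apart in ysE CxF, at 53.3% methylation against a median chromosome of 69.5%, and chromosome 3 in ysE FxC, at 52.5% against 60.5%. Chromosome 6 in liver CxF and chromosomes 12 and 14 in cystic EB FxC also left the range of their library, and results without these 5 chromosomes, which leave 572 domain windows of 9858, are given beside those that change.

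Of 704 miRNA genes in eligible windows, 27 miRNA genes, or 3.84%, lay in domains, beside 432 of 15723 genes of the RNA tables (2.75%) and 7.58% of the windows. The miRNAs shown were chosen after the values were seen, as well-known embryonic and neural regulators, and capitals mark the seed, bases 2 to 8, which pairs with target mRNAs. MiR-99a and let-7c share 1 primary transcript, and let-7c belongs to the let-7 family of differentiation. The other miRNAs, miR-137, miR-9 and miR-218, are known from neurons. The 5 seeds differ from each other.
mmu-miR-99a-5p: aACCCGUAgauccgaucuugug
mmu-let-7c-5p: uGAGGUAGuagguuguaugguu
mmu-miR-137-3p: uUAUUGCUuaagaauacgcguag
mmu-miR-9-5p: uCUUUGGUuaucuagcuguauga
mmu-miR-218-5p: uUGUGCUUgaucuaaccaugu
The mature sequences are those of RefSeq on GRCm38.p6 (mm10), at chr16:77598940-77598961, chr16:77599672-77599693, chr3:118433901-118433923, chr7:79505279-79505301 and chr5:48223966-48223986, all on the plus strand. The window of miR-99a and let-7c had methylation of 46.8% and 41.1% in ysE, 77.4% and 76.7% in liver, beside 91.5% and 89.8% in cystic EBs. At miR-137 the ysE libraries read 40% and 33.8%, liver 67.0% and 72.6% and cystic EBs 86.7% and 78.0%. The window of miR-218-1 had 44.1% and 32.5% in ysE, 67.4% and 76.7% in liver, beside 89.3% and 90.4% in cystic EBs. At miR-9-3 the tissues lay closer, with 45.5% and 50.4% in ysE, 67.8% and 57.9% in liver, beside 76.1% and 66.7% in cystic EBs. In each of these windows both ysE libraries lay below both liver libraries, an order that the rule favours.

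Promoters of the domain genes were poor in CpGs, with a median of 9 CG in 300 bases against 17 in genes of other windows. The share with an H3K4me3 peak was 34.1% of 287 promoters in domains and 69.9% of 11671 elsewhere. The promoters shown run from 250 bases before to 50 bases after the start on mm10 (RefSeq, GRCm38.p6), with each CG, which reads alike on both strands, in capitals. They were chosen after the values were seen because their genes moved most in the comparisons below and because they span the range from few to many CGs. Hemgn (chr4:46404134-46404433, minus strand) is a nuclear protein of blood cell precursors, and 68.1% of 27025 promoters hold as many CGs as its 4 or more.
Hemgn: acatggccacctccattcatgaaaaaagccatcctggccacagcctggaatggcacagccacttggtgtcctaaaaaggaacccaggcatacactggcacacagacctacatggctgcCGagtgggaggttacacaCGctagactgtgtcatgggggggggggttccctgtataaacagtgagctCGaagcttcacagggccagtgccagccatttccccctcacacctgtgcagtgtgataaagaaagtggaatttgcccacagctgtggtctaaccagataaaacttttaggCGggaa
Eltd1 (chr3:151437632-151437931, plus strand; Adgrl4 in RefSeq) is an adhesion receptor of vessel endothelium, and its promoter holds 8 CGs and has a peak in VYS.
Eltd1: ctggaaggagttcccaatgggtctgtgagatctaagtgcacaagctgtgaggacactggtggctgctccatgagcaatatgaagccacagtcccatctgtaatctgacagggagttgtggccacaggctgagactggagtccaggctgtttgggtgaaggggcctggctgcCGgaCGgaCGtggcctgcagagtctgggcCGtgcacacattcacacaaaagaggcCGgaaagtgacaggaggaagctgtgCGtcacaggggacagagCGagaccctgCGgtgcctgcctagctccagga
Fat3 (chr9:16502005-16502304, minus strand) is a large atypical cadherin, with 35 CGs and no peak, a number that 6.75% of promoters reach.
Fat3: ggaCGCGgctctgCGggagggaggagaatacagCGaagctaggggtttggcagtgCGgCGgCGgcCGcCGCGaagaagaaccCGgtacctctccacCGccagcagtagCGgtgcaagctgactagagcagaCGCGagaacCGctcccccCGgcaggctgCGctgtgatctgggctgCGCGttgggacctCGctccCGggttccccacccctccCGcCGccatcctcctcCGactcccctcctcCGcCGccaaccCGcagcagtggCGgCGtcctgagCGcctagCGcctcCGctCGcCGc
Hoxd13 (chr2:74667975-74668274, plus strand), a homeobox factor of the digits and hindgut, had 37 CGs, reached by 5.37% of promoters, and no peak.
Hoxd13: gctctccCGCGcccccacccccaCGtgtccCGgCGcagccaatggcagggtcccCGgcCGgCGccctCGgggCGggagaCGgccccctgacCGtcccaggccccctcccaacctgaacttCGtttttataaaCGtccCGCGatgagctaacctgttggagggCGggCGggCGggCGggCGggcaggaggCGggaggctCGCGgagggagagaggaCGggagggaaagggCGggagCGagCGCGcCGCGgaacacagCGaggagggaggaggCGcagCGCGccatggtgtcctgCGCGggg
Cdkn2a (chr4:89294570-89294869, minus strand) encodes the cell cycle inhibitors p16 and Arf, with 45 CGs, reached by 1.85% of promoters, and a peak.
Cdkn2a: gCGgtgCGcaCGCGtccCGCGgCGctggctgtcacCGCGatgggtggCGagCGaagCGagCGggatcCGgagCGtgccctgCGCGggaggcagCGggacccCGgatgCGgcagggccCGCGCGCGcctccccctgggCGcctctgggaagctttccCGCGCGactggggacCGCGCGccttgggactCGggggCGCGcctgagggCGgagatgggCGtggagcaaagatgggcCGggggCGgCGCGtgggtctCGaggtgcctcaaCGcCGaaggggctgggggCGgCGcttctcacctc
Single promoters had only 2 to 30 reads per bisulfite library, so no level is given for one. Over all promoters of domain genes with a peak, methylation was 28.2% and 27.4% in ysE, 38.1% and 42.4% in liver, beside 45.7% and 47.3% in cystic EBs. Such promoters elsewhere had 27.3% and 27.3% in ysE, 36.0% and 41.4% in liver, beside 42.1% and 39.7% in cystic EBs. Without a peak, promoters of domain genes had 40.1% and 35.7% in ysE, 54.2% and 57.4% in liver, beside 73.5% and 70.6% in cystic EBs. Promoters of other windows without a peak read 64.1% and 58.0%, 72.1% and 73.7%, and 82.4% and 77.6%.

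Over the 1025 domain windows, ysE had a median methylation of 48.0% in CxF and 42.2% in FxC, against 71.5% and 64.9% in the 12501 other windows. Liver had domain medians of 74.6% and 76.9%, and cystic EBs of 88.4% and 83.9%. In single windows ysE ran from 21.0% to 67.3% (CxF) and 19.7% to 65.3% (FxC), liver from 38.5% to 87.6% and 41.0% to 87.2%, and cystic EBs from 66.7% to 95.5% and 58.0% to 93.4%. No domain window fell below 50% in a cystic EB library, and 5 and 4 did in the liver libraries. Both ysE libraries lay below both liver libraries in 1017 of the 1025 windows. The rule favours this order, which 9995 of the 12501 other windows also had.

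**Figure D1:**
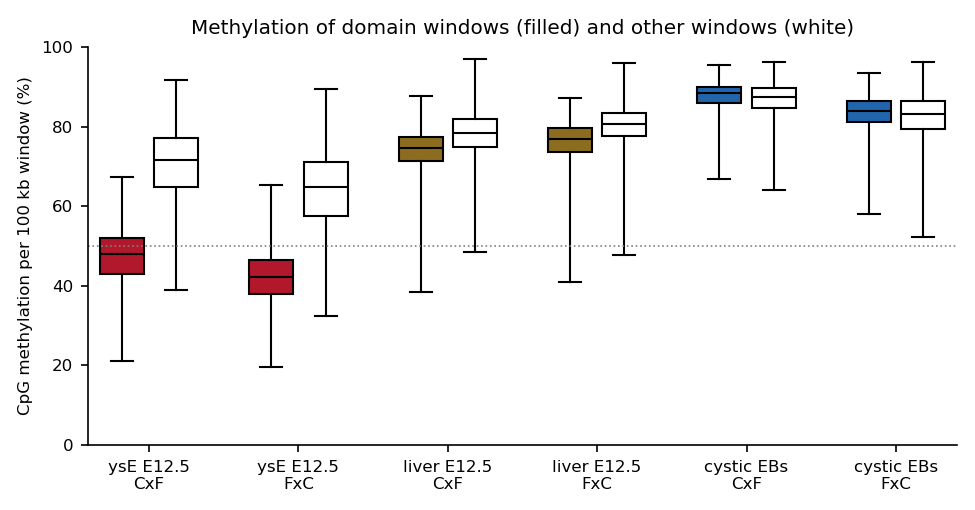
CpG methylation (%) per 100 kb window in the 6 bisulfite libraries, for the 1025 domain windows (filled boxes) and 12501 other windows (white boxes); boxes span the quartiles with the median as a line, whiskers run from the lowest to the highest window, and the dotted line marks 50%. The domain medians are 48.0% and 42.2% in ysE, 74.6% and 76.9% in liver, beside 88.4% and 83.9% in cystic EBs, where filled and white boxes overlap almost wholly.

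In liver the same windows were a little lower than the rest. Their median lay 3.70 and 3.78 points below that of the other windows (78.3% and 80.6%), and 81.4% and 83.5% of the domain windows sat under the median of the others. In cystic EBs the difference ran the other way, 0.85 and 0.69 points above the medians of 87.5% and 83.2%. Among windows without an H3K4me3 peak the liver gap was -3.36 and -3.41 points and the cystic EB gap -0.43 and -0.95 points, so the sign in cystic EBs turned with that choice, while the liver gap kept its sign. Without the 5 chromosomes the gaps were -3.23 and -3.55 in liver, beside 1.15 and 0.96 in cystic EBs. These gaps are given as a description, with no test.

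The tissues kept 1 order in most domain windows. Both liver libraries lay below both cystic EB libraries in 933 windows, or 91.0%, against 57.6% of the other windows, and the opposite order occurred in 0 domain windows and in 389 others (3.11%). The median difference of cystic EBs over liver was 10.4 points in domains and 5.60 points elsewhere. With limma on the log2 ratio of methylated to unmethylated reads, 389 of the 1025 domain windows were higher in cystic EBs than in liver at a false discovery rate of 5% and 0 were lower, where 14.4% of all eligible windows were higher and 0.0296% lower. At an unadjusted p under 0.05, 740 domain windows were higher and 0 lower, against 4656 and 42 of all 13526 eligible windows. The median difference was 1.01 on the log2 scale in domains and 0.58 in the other windows. The count rested on few libraries, since it fell to 0 without liver CxF, to 1 without liver FxC and to 2 without cystic EB CxF, and to 2 with the cross as a replicate block.

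Liver and cystic EB levels of the domain windows also varied together between libraries of 1 tissue. Pearson's r over the 1025 windows was 0.544 between the liver libraries and 0.522 between the cystic EB libraries, as a description, since windows of a library share its depth and base composition. Between the ysE libraries r was -0.144 in domains and 0.735 over all 13526 eligible windows. The rule caps the mean of those libraries, which binds their values to each other. Of the 1025 windows, 499 were below 50% in both ysE libraries, 400 in FxC only and 126 in CxF only.

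The threshold cut through a continuous range. Within 1 point of it, 129 windows lay inside and 143 outside, and the last inside were chr3:142100001-142200000 over Bmpr1b, a BMP receptor, at 49.998% and chr4:120000001-120100000 over Hivep3 at 49.996%. The first outside were chr3:40300001-40400000 at 50.009% and chr7:129400001-129500000 at 50.023%. Below 40% there were 161 windows and below 30% there were 8.

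The lowest windows in ysE were methylated in the other tissues. In chr4:68900001-69000000, over part of the neural gene Brinp1, ysE methylation was 27.4% (Wilson 95% interval 23.9 to 31.2) and 25.7% (20.3 to 32.0), against 73.6% and 80.1% in liver, beside 90.4% and 86.9% in cystic EBs. The window of the homeobox gene Alx1, a factor of facial mesenchyme (chr10:103000001-103100000), had 30.8% and 23.1% in ysE, 68.1% and 73.0% in liver, beside 87.7% and 81.0% in cystic EBs. Of the 5 lowest, 3 more were on chromosome 4. They were chr4:20700001-20800000 in Nkain3, at 26.1% and 30% in ysE, and the windows starting at 39400001 and 94100001, at 27.6% and 28.8% and at 29.3% and 27.8%. In these 3 windows liver read 65.8% to 76.1% and cystic EBs 76.8% to 91.2%. The intervals cover counting error only.

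The domain windows with the lowest liver levels are described next, by the genes they hold. The lowest by the mean of the liver libraries was chr11:96200001-96300000, with the homeobox genes Hoxb6 to Hoxb9 and 10 H3K4me3 peaks. It had 53.6% and 43.0% in ysE, 44.6% and 41.0% in liver, beside 68.7% and 58.0% in cystic EBs. At Evx2 and Hoxd9 to Hoxd13 (chr2:74600001-74700000) the levels were 44.4% and 41.6%, 43.9% and 45.02%, and 66.7% and 66.5%. The cerebellar factors Zic1 and Zic4 (chr9:91300001-91400000) had 49.3% and 37.9% in ysE, 44.8% and 44.4% in liver, beside 82.4% and 78.6% in cystic EBs. Cdkn2a (chr4:89200001-89300000) had 44.5% and 52.6% in ysE, 52.4% and 54.2% in liver, beside 80.7% and 78.4% in cystic EBs. In both Hox windows the ysE and liver values overlapped, and cystic EBs were above both.

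At the other end, chr17:61900001-62000000, which holds no RefSeq gene, had 54.1% and 43.2% in ysE, 87.6% and 83.5% in liver, beside 91.6% and 86.8% in cystic EBs. The window of Ppp1r1c, an inhibitor of protein phosphatase 1 (chr2:79700001-79800000), had 50.5% and 38.6%, 84.6% and 84.2%, and 90.0% and 89.3%. Rab27b, a GTPase of secretory granules (chr18:70000001-70100000), lay in a window of 52.1% and 47.1% in ysE, 82.5% and 85.5% in liver, beside 90.6% and 87.2% in cystic EBs. In these windows liver was close to cystic EBs.

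Domain windows were uneven over the chromosomes with eligible windows (1 to 12, 14 and 16 to 18). The remaining chromosomes had no eligible window, so domains could not be seen there. Chromosome 4 held 254 of them, 22.8% of its 1115 eligible windows, followed by chromosome 3 with 127 (13.2%) and chromosome 16 with 68 (10.8%), while chromosome 1 had 34 (2.90%). Chromosomes 4 and 3 are those that stood apart in a single ysE library. On chromosome 4, 31.8% of the windows were below 50% in ysE CxF and 15.5% in FxC, and on chromosome 3 the shares were 5.18% and 29.8%. Taking as many of the lowest windows from minus-strand reads gave 15.0% on chromosome 4, 12.4% on chromosome 3 and 12.7% on chromosome 16, and 5.03% on chromosome 1; that set shared 866 windows (84.5%) with the domains. Chromosome 16 stood apart in no library, and its windows were below 50% in 7.17% (CxF) and 18.9% (FxC). Chromosome 6 had 0 domain windows among 232, and liver CxF had 207307 reads there against 742740 in liver FxC.

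**Figure D2:**
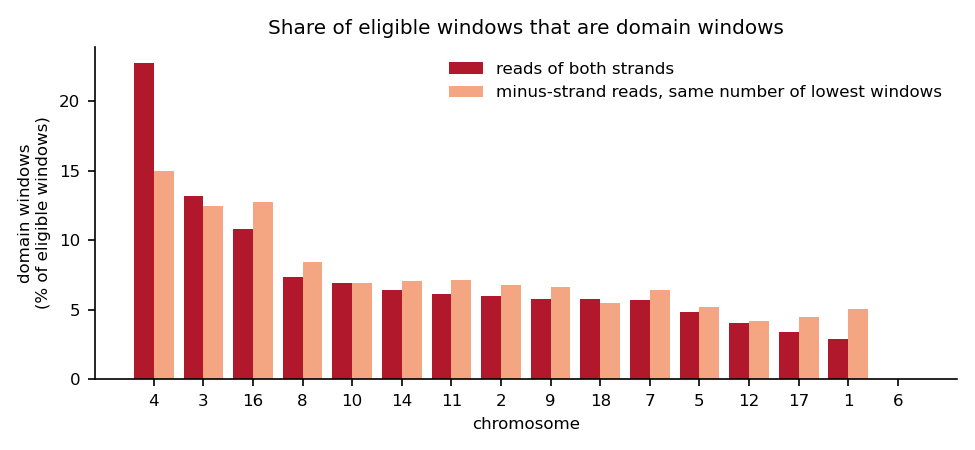
Share of the eligible 100 kb windows of each chromosome (%) that are domain windows, by reads of both strands (dark bars) and, for as many of the lowest windows, by minus-strand reads (light bars). Chromosome 4 falls from 22.8% to 15.0% between the bars, and chromosome 16 goes from 10.8% to 12.7%.

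Domain windows lay beside each other more often than other windows lay beside a domain, with 41.2% of their eligible neighbours in domains against 3.64%. They formed 743 runs, of which 564 were single windows, 124 of 2 windows and 55 of 3 or more. Both of the longest runs, of 800 kb, lay on chromosome 4, chr4:13000001-13800000, which runs into Runx1t1, a transcriptional corepressor, and chr4:13900001-14700000 over the anion transporter Slc26a7. Methylation in the first was 38.9% and 44.9% in ysE, 75.1% and 77.2% in liver, beside 87.6% and 83.5% in cystic EBs. The second had 42.4% and 46.6%, 72.0% and 75.6%, and 86.5% and 81.3%. Both lie on the chromosome that stood apart in ysE CxF, and both were below 50% in FxC as well.

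The next longest runs, 3 of 600 kb, lay over large genes. The run chr11:36700001-37300000 in Tenm2, a teneurin that joins synapses, had 49.2% and 39.2% in ysE, 74.8% and 79.0% in liver, beside 90.3% and 85.9% in cystic EBs. Ptprd, a receptor phosphatase of synapse formation, held the 600 kb run chr4:75900001-76500000, with 40.4% and 46.7%, 76.1% and 78.2%, and 90.1% and 87.4%. A run of the same length, chr4:85300001-85900000, covered Sh3gl2, an endophilin of synaptic vesicles, and Adamtsl1, a matrix glycoprotein, with 36.1% and 42.5% in ysE, 73.9% and 74.6% in liver, beside 88.2% and 85.9% in cystic EBs. The 7 runs of 500 kb included Lingo2, Elavl2 and Dab1 on chromosome 4 and Tenm3 on chromosome 8, all known from neurons. On chromosome 3 lay Adgrl4, a gene of endothelium, and a run with Iqcj and Schip1, while 1 run held only unnamed gene models. Chromosomes 4 and 3, which stood apart in a ysE library, held most of the runs of 500 kb and 600 kb. Of the 15 runs of 400 kb, some held the guidance receptor Robo2, the splicing factor Rbfox1, the muscle factors Myf5 and Myf6, Astn2, and Mir99ahg, the host gene of miR-99a, where ysE read 45.2% and 36.8%, liver 74.9% and 75.6% and cystic EBs 90.2% and 85.4%. Others held Slc7a11, a cystine transporter, Tnc, a matrix glycoprotein, Rmst, a noncoding RNA, or Rps20, Plag1 and Penk, and 5 held only unnamed gene models. Fat3 (chr9:16000001-16400000) had 51.9% and 41.8%, 73.4% and 76.6%, and 89.0% and 87.3%. Nkx2-1 and Pax9, factors of the foregut, shared chr12:56400001-56700000, with 48.3% and 43.9% in ysE, 68.8% and 69.5% in liver, beside 85.5% and 82.4% in cystic EBs.

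Long genes overlapped domains more often than short ones. Of 93 genes of 500 kb or more, 37 (39.8%) touched a domain window and 10 (10.8%) had at least 50% of their length in them, while 2.69% of the genes under 20 kb touched 1. A long gene spans more windows, which by itself raises the first of these shares.

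At the ends of the 55 runs of 3 or more windows, methylation in ysE stepped down within 20 kb. Most of these runs lay on chromosomes 4 and 3, which stood apart in a ysE library, so the levels at the ends rest mainly on them. In the last 10 kb outside, ysE read 56.3% and 53.6%, and in the first 10 kb inside 45.8% and 40.1%. Liver went from 78.9% to 72.7% and from 79.7% to 76.5%, and cystic EBs from 89.3% to 88.1% and from 86.0% to 85.2%. At 200 kb outside, ysE was still at 55.2% and 53.2%, under the medians of 71.5% and 64.9% of windows outside the domains. The step in ysE lies at the window edge because the rule places it there.

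**Figure D3:**
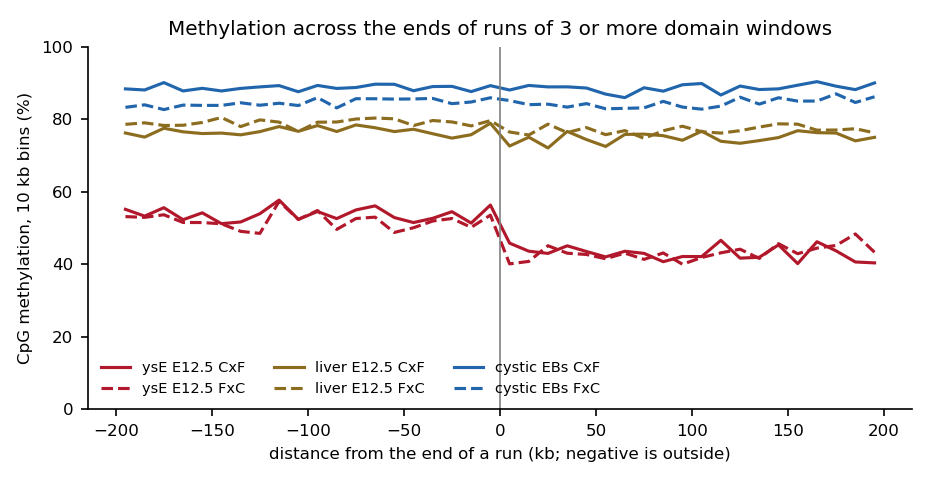
CpG methylation (%) in 10 kb bins from 200 kb outside (negative) to 200 kb inside the ends of the 55 runs of 3 or more domain windows, with 1 line per bisulfite library (solid CxF, dashed FxC). The ysE lines drop at the edge, from 56.3% and 53.6% to 45.8% and 40.1%, and the cystic EB lines stay between 82.7% and 90.4% throughout.

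Domain windows had fewer genes, promoters and called CpG positions than other windows and, on average, more LINE bases. They held 1.12 RefSeq genes per window against 2.37 elsewhere, and 0.362 protein-coding genes against 1.13. In windows of 50 kb or with at least 400 reads few windows met the rule, and these held more genes than the others. A gene was counted in the window of its midpoint, and 39.3% of domain windows held none, against 16.4% of the others. No gene overlapped 15.2% of domain windows and 6.07% of the others. Called CpG positions numbered 698 per window against 976, and H3K4me3 peaks 0.353 against 1.35, with no peak in 78.6% of domain windows and 43.6% of the others. The share of windows in domains fell from 12.9% of those without a peak to 1.32% of those with 3 or more. By called CpG positions it fell from 22.1% in the lowest of 5 equal groups to 0.813% in the highest. Called positions come from the bisulfite libraries themselves, where few plus-strand calls are unmethylated, so their number is not independent of methylation. Gene-free windows were in domains in 17.0% of cases, windows that lie wholly inside genes in 12.1% and windows partly in genes in 5.67%.

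LINE elements, the autonomous L1 retrotransposons above all, covered 14580 bases of a domain window against 8026 elsewhere. The relation was not even, since the share of windows in domains was 8.54%, 1.74%, 3.11%, 7.91% and 16.6% from the lowest to the highest of 5 equal groups by LINE bases, and 22.4% of domain windows had no LINE base, against 18.6% of the others. The young L1Md families had 5148 against 2379 bases, and L1 elements of 5 kb or more numbered 0.459 against 0.217 per window. SINEs were fewer, with 3311 against 5038 bases, and of their families the gene-associated B1 had 0.491 times and B2 0.578 times the bases of other windows, while the ancient MIR elements had 1.41 times. IAP elements, young LTR retrotransposons, numbered 0.354 against 0.626 per window. The repeat table lists elements outside genes, so the values also follow the room outside genes. Of the bases outside genes, LINEs took 29.1% in domains and 19.8% elsewhere, SINEs 6.60% and 12.45%, and LTR elements 13.5% and 19.2%. Windows that were not eligible had still more LINE bases, 26304 against 8522, and 461 called CpG positions against 955. The need for 200 reads thus kept out windows that on average were richer in LINEs and had fewer called positions. With CpGs outside listed repeats only, the LINE ratio rose from 1.82 to 2.84, over 1490 windows of which 944 were domains.

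Domain levels in ysE lay under those of other windows in most classes of sequence, and IAPEz elements had the highest. IAPEz elements had 77.7% and 82.3% in ysE (1805 and 853 reads), against 86.2% and 84.8% in other windows, and in domains 90.3% and 90.0% in liver, beside 95.7% and 94.4% in cystic EBs. LINEs had 44.8% and 42.8%, SINEs 43.2% and 41.0%, and other LTR elements 49.4% and 48.5%, against 63.0% and 54.6%, 63.6% and 57.4%, and 73.7% and 67.7% in other windows. Bodies of genes at 1 RPKM or more in E12.5 ysE had 57.3% and 48.9%, against 80.3% and 75.8% elsewhere, and bodies of genes under 1 RPKM 46.9% and 42.1%, against 69.1% and 62.2%. CpGs in peaks had 21.3% and 23.9% in ysE domains, 35.1% and 37.2% in liver, beside 52.3% and 43.0% in cystic EBs. In liver the domain LINEs had 71.1% and 72.9% and in cystic EBs 82.8% and 78.1%.

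**Figure D4:**
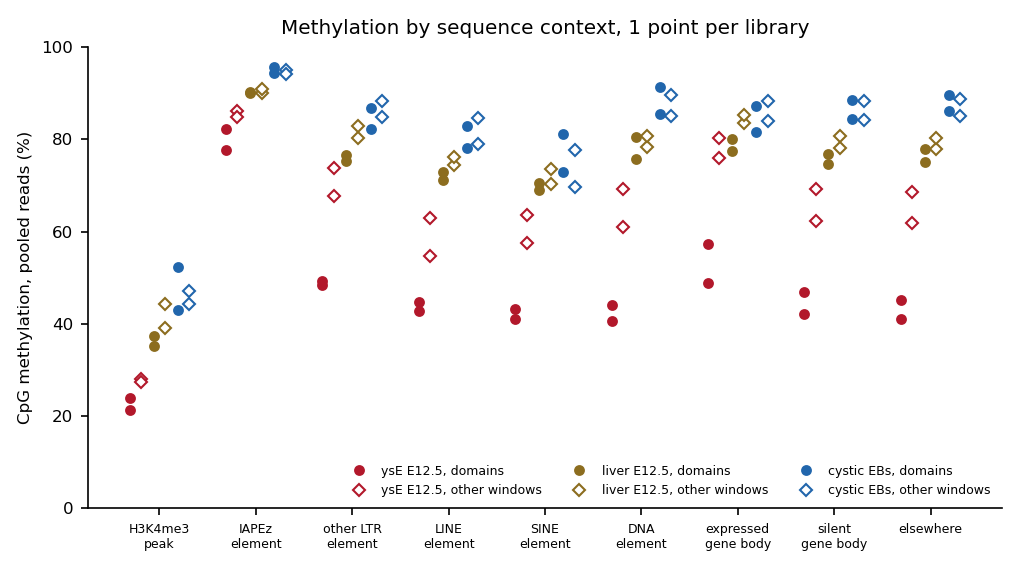
CpG methylation (%, reads pooled over all CpGs of a class) in domain windows (filled circles) and other windows (open diamonds), with 1 point per library and colour by tissue; expressed and silent gene bodies are those at 1 RPKM or more and under 1 RPKM in E12.5 ysE. In ysE the filled circles lie at 40.5% to 57.3% in all classes but IAPEz elements, at 77.7% and 82.3%, and H3K4me3 peaks, at 21.3% and 23.9%.

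Of the domain windows, 156 were free of genes, 289 lay wholly inside genes and 580 partly. With a peak (219 windows) liver had medians of 73.1% and 75.6%, and without one (806) 75.1% and 77.2%.

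Few genes of the domains were transcribed in ysE. A gene was placed in the domains when at least 50% of its length lay in domain windows, which gave 432 of 22961 genes, 348 of them protein-coding, and 15291 genes in other windows. Of the 432, 33 genes (7.64%) reached 1 RPKM in E12.5 ysE, and 7.41% and 8.10% in E9.25 ysE (A and B). The shares were 20.6% and 19.9% in VYS mesoderm, 19.4% and 17.8% in liver, and 20.1% to 23.1% in the 4 cystic EB libraries. Genes of other windows reached it in 52.2% to 59.5% over the 11 libraries. The median domain gene had 0 RPKM in E12.5 ysE, 0.005 and 0.006 at E9.25, and 0.019 to 0.085 in the other tissues, so at 1 RPKM domain genes were fewer in ysE than in the other tissues. At 5 RPKM the shares of ysE and liver overlapped, with 5.32% in E12.5 ysE, 3.94% and 4.40% at E9.25, 4.40% in each liver library, 8.80% and 8.10% in VYS mesoderm and 5.79% to 8.80% in cystic EBs. Without the 5 chromosomes the shares at 1 RPKM were 4.03% in E12.5 ysE and 3.63% and 4.84% at E9.25, against 15.3% to 21.0% in the other tissues, and at 5 RPKM 2.82%, 2.02% and 2.02% in ysE and 2.02% and 2.42% in liver. In bulk samples fewer expressing cells cannot be told apart from less RNA per cell.

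**Figure D5:**
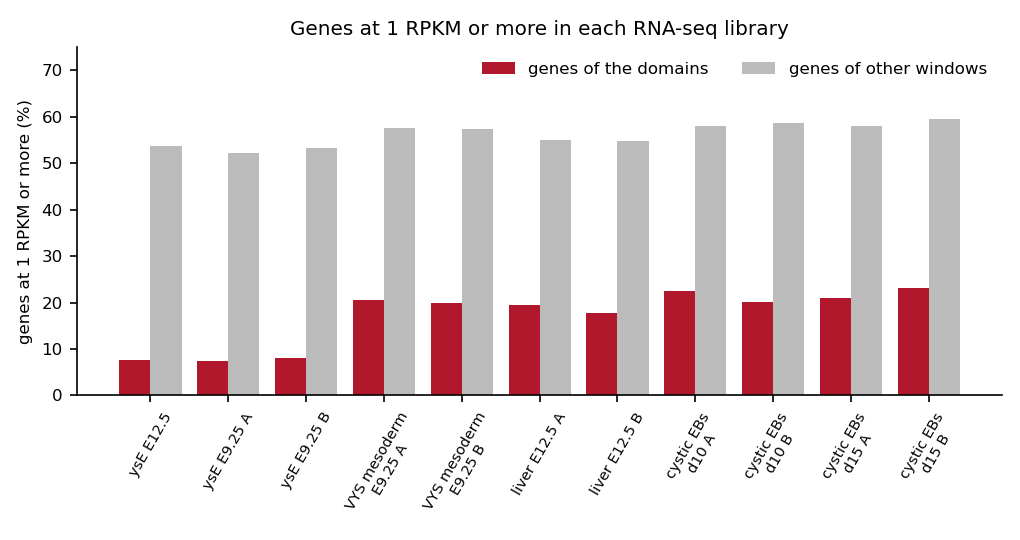
Share of genes at 1 RPKM or more (%) in each of the 11 RNA-seq libraries, for the 432 genes of the domains (red) and 15291 genes of other windows (grey). The red bars stand at 7.41% to 8.10% in the 3 ysE libraries and at 17.8% to 23.1% in the 8 others, and the grey bars at 52.2% to 59.5%.

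An H3K4me3 peak at the start set these shares apart further. Of 98 domain genes with a peak in VYS, 20.4% reached 1 RPKM in E12.5 ysE and 42.9% to 51.0% in cystic EBs, while 74.6% to 83.2% of such genes outside domains did over all libraries. Of 189 domain genes without a peak, 1.59% reached it in E12.5 ysE, 4.23% in each liver library and 3.70% to 6.35% in cystic EBs. Outside domains, 8.54% of the genes without a peak reached it in E12.5 ysE. The peaks are of whole VYS and can come from its mesoderm.

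More domain genes were lower than higher in ysE against each other tissue, and most did not pass the test. With edgeR's quasi-likelihood test (Benjamini-Hochberg adjustment over 24858 transcripts, false discovery rate of 5%), 307 domain genes could be tested. In E12.5 ysE against liver, 22 were higher and 117 lower, where 22.6% of all transcripts were higher and 23.7% lower. Against cystic EBs, 11 were higher and 131 lower, with 18.8% and 21.1% of all. In E9.25 ysE against VYS mesoderm, the only comparison with 2 libraries of 1 protocol on both sides, 9 were higher and 110 lower, with 13.7% and 16.9% of all. Medians on the log2 scale were -3.52, -4.93 and -2.42, against -0.13, -0.29 and 0.01 in genes of other windows. Because 145 of the 307 had no count in E12.5 ysE and 41 none in E9.25 ysE, fitted values of these genes are arbitrary. They passed the filter on low counts through other groups and could not come out higher in that ysE group, which favours lower calls and medians. With such genes at their bound the medians were -1.55, -2.16 and -1.88, with no like value for genes of other windows. Without the filter, 399 domain genes had medians of -2.68, -3.99 and -2.15, against -0.01, -0.41 and -0.01 in genes of other windows. Genes at 0 were fewer in mesoderm (12), liver (35) and cystic EBs (1). Depth was not matched in these counts, since E12.5 ysE is 1 library of 40453779 counts and each other group sums 2 or 4 libraries.

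In cystic EBs against liver, the comparison without ysE, 81 of the 307 were higher and 40 lower, with 24.6% and 20.9% of all transcripts, and the median was 0.67 against 0.21 in genes of other windows. The comparisons with E12.5 ysE share its 1 library, which borrows its spread from the other groups. Leaving out a library moved some counts. The 110 lower genes of E9.25 ysE became 71 and 69 without ysE A and B, and the 9 higher became 3 without either and 1 and 2 without mesoderm A and B. The 11 genes higher in E12.5 ysE than in cystic EBs became 7 without an E9.25 ysE or a mesoderm library, and 4 in a fit of the compared groups alone. The 81 genes higher in cystic EBs than in liver became 35 without liver B.

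Other cell types differ between these samples. Summed RPKM of 5 blood markers was 18523 to 23363 in VYS mesoderm, 1341 to 2664 in liver, 490 to 569 in E9.25 ysE, 26.4 in E12.5 ysE and 6.13 to 79.6 in cystic EBs. Mesoderm and vessel markers summed to 1043 to 1177 in VYS mesoderm and 18.9 to 47.9 in ysE, and pluripotency markers to 89.5 to 181 in cystic EBs and 2.58 to 5.65 in ysE. The ysE markers, Afp and Ttr among them, summed to 39588 in E12.5 ysE and 8824 to 9930 in E9.25 ysE. Their sums were 983 to 1722 in VYS mesoderm, 1522 to 2796 in liver, beside 103 to 1157 in cystic EBs. Afp gave most of these in ysE and liver (35558 in E12.5 ysE, 1396 and 2471 in liver). Amn and Cubn were lower in liver (Cubn 0.435 and 0.55) than in mesoderm (61.1 and 102), Afp and Hnf4a higher, and the rest overlapped. Hepatocyte markers, mostly Apob in ysE and Alb in liver, summed to 1077 in E12.5 ysE, 734 to 897 in E9.25 ysE and 399 to 844 in liver. None of the marker genes lay in the domains. Their part in the gene counts was not tested.

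Among the genes that fell were genes of blood and vessels. Hemgn stood at 115 and 190 RPKM in liver, 16.8 and 15.0 in VYS mesoderm, 0.464 and 0.461 at E9.25, 0.030 in E12.5 ysE and 0.030 to 0.062 in cystic EBs. On 3 counts in E12.5 ysE, liver was higher by a ratio of 6328 (counting interval 2165 to 30686), and in E9.25 ysE it fell by 4.78 ± 0.35 (SE) on the log2 scale against mesoderm (edgeR adjusted p = 0.000118). Eltd1 had 2.06 and 2.52 RPKM in liver, 7.24 and 6.47 in VYS mesoderm, 0.275 and 0.216 at E9.25 and 0 in E12.5 ysE. It was at least 170-fold lower than in liver (edgeR adjusted p = 0.00178) and in E9.25 ysE fell by 4.48 ± 0.83 on the log2 scale against mesoderm (edgeR adjusted p = 0.00326). Its cystic EB values, 0.205 to 1.72 RPKM, spread widely. The summed blood and vessel markers given above were likewise lower in ysE than in liver and mesoderm, but Hemgn was higher in liver than in mesoderm and the blood markers were not.

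Of the adhesion and matrix genes of the domains, Fat3, Mmp16 and Adamtsl1 were at 0 in E12.5 ysE. Fat3 had 1.54 and 0.485 RPKM in liver, beside 1.04 to 1.99 in cystic EBs, and was at least 359-fold and 432-fold lower in E12.5 ysE (edgeR adjusted p = 0.000255 and 0.000253). In E9.25 ysE it had 0.013 and 0.008 RPKM, and in mesoderm 0.076 and 0.045. Mmp16, a membrane metalloprotease, had 2.10 and 1.08 RPKM in liver, beside 0.71 to 1.24 in cystic EBs, and was at least 137-fold and 72.4-fold lower. Adamtsl1 was at least 91.9-fold lower than in liver and at least 37.2-fold lower than in cystic EBs. Ptprd, with 0.222 RPKM in E12.5 ysE, 0.167 and 0.201 at E9.25, 3.58 and 3.398 in VYS mesoderm, 5.29 and 2.72 in liver, beside 1.002 to 2.26 in cystic EBs, fell by 4.15 ± 0.61 on the log2 scale against liver (edgeR adjusted p = 0.000672), by 2.54 ± 0.54 against cystic EBs (edgeR adjusted p = 0.0053) and by 3.92 ± 0.45 against mesoderm (edgeR adjusted p = 0.000369). In Ptprd the ysE values did not overlap with those of any other tissue.

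The other genes of the longest runs did not share 1 direction. Tenm2 (Odz2 in the tables) had 0 RPKM in E12.5 ysE, 0 and 0.002 at E9.25, 0.062 and 0.041 in VYS mesoderm, 0.083 and 0.020 in liver, beside 0.019 to 0.167 in cystic EBs. It was at least 9.65-fold lower in E12.5 ysE than in liver (edgeR adjusted p = 0.0448), a call lost without liver A among other libraries. Sh3gl2, with just under 50% of its length in domains, had 0.207 RPKM in E12.5 ysE, 0.170 and 0.145 at E9.25, 0.025 and 0.051 in VYS mesoderm, 0.055 and 0.005 in liver, beside 0.330 to 0.688 in cystic EBs. It was higher in E12.5 ysE than in liver by 2.77 ± 0.99 on the log2 scale (edgeR adjusted p = 0.0438), a call lost without any of 8 libraries and in a fit of those groups alone. Runx1t1 had 0.752 RPKM in E12.5 ysE, 0.203 and 0.256 at E9.25, 2.09 and 1.42 in VYS mesoderm, 3.53 and 3.19 in liver, beside 0.423 to 3.61 in cystic EBs. It fell by 2.61 ± 0.82 on the log2 scale in E9.25 ysE against mesoderm (edgeR adjusted p = 0.0378, lost without any 1 of the 4 libraries) and did not pass against liver (-2.13 ± 1.06, edgeR adjusted p = 0.126). Slc26a7 and Lrrc69, at most 0.210 and 0.330 RPKM in any library, passed in none of the 3 ysE comparisons.

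The neural genes Nkain3, Pcdhb17, Slc17a6, Bhlhe22 and Fam19a2 had at most 0.246 RPKM in ysE and VYS mesoderm. Pcdhb17 was higher in the other tissues, with 1.16 and 0.401 RPKM in liver and 0.223 to 1.25 in cystic EBs. Nkain3, Pcdhb17, Slc17a6 and Bhlhe22 had 0 RPKM in all 3 ysE libraries. Against mesoderm, Pcdhb17, a protocadherin of the beta cluster whose copies are alike in sequence, with 0.147 and 0.046 RPKM there, was at least 30.8-fold higher in mesoderm than in E9.25 ysE (edgeR adjusted p = 0.0133), and Slc17a6, a glutamate transporter of neurons, at least 26.3-fold (edgeR adjusted p = 0.0284). Nkain3 was at least 6.15-fold (edgeR adjusted p = 0.00808) and Bhlhe22, a neuronal transcription factor, at least 4.92-fold (edgeR adjusted p = 0.0348) higher in mesoderm. These 4 calls against mesoderm were each lost without 1 or more of the 4 libraries compared. Fam19a2, a secreted peptide of brain, had 0.192 and 0.246 RPKM in mesoderm, 0.457 and 0.294 in liver, 0.004 and 0.005 at E9.25 and 0.016 in E12.5 ysE, and fell by 5.21 ± 0.67 on the log2 scale against mesoderm (edgeR adjusted p = 0.000591).

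A smaller group was higher in ysE. Cdkn2a had 13.3 RPKM in E12.5 ysE, 4.37 and 5.15 at E9.25, 0.403 and 0.603 in VYS mesoderm, 2.37 to 6.24 in cystic EBs and 0 in both liver libraries. It was at least 541-fold higher than in liver (edgeR adjusted p = 7.92e-05), by 3.55 ± 0.58 on the log2 scale than in mesoderm (edgeR adjusted p = 0.00239) and by 2.17 ± 0.52 than in cystic EBs (edgeR adjusted p = 0.0109). Slc5a9, a sugar transporter, had 0.457 RPKM in E12.5 ysE, 1.14 and 1.16 at E9.25, 0.164 and 0.187 in VYS mesoderm and 0 in liver, at least 87.2-fold below E12.5 ysE. Kcnj16, a potassium channel of epithelia, had 0.623 RPKM in E12.5 ysE, 0.092 and 0.116 at E9.25 and at most 0.026 elsewhere, and was higher than in cystic EBs by 6.63 ± 1.01 on the log2 scale (edgeR adjusted p = 0.000913). The noncoding RNA A330049N07Rik had 0.291 RPKM in E12.5 ysE and at most 0.026 elsewhere. Calb1, a calcium buffer, went both ways. It had 0.023 and 0.018 RPKM at E9.25, on 17 counts in all, against 0 in VYS mesoderm (edgeR adjusted p = 0.0188), but 0 in E12.5 ysE against 0.061 and 0.069 in liver (edgeR adjusted p = 0.0482), beside 0.011 to 0.085 in cystic EBs. Each of these calls was lost without 1 or more libraries. The ysE values of Cdkn2a overlapped with those of cystic EBs at E9.25 only.

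Hoxd13 had 0.168 RPKM in E12.5 ysE, 0.148 and 0.240 at E9.25, 0.014 and 0.012 in VYS mesoderm, 0.018 and 0 in liver, beside 0.116 to 0.859 in cystic EBs. It was higher in E9.25 ysE than in mesoderm by 4.17 ± 1.24 on the log2 scale (edgeR adjusted p = 0.0296), a call lost without any 1 of the 4 libraries. Crabp2, which binds retinoic acid, fell by 4.93 ± 1.26 on the log2 scale from cystic EBs (15.9 to 50.3 RPKM) to E12.5 ysE (0.747 RPKM; edgeR adjusted p = 0.0127) but higher in E9.25 ysE (12.1 and 12.53) than in mesoderm (1.83 and 1.43) by 3.24 ± 0.85 (edgeR adjusted p = 0.0179), and the second call was lost without any 1 of its libraries. Csl, a testis citrate synthase-like gene, had 2.47 RPKM in E12.5 ysE, and the ratio to liver, on 2 counts there, was 316 (counting interval 86.4 to 2628).

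The most abundant domain genes in E12.5 ysE included ribosomal proteins and lay on chromosomes 3, 4 and 5, the first 2 of which stood apart in a ysE library. Mrpl24, a mitochondrial ribosomal protein, had 62.3 RPKM in E12.5 ysE, 42.5 and 48.5 at E9.25, 44.2 and 38.2 in VYS mesoderm, 23.7 and 23.5 in liver, beside 42.2 to 57.5 in cystic EBs. Hdgf, a growth factor of the same window on chromosome 3, had 35.2 RPKM in E12.5 ysE and 234 and 264 in liver, a fall of 2.79 ± 0.46 on the log2 scale (edgeR adjusted p = 0.0011). A430005L14Rik on chromosome 4 had 25.3 RPKM in E12.5 ysE and 4.53 and 7.57 in liver, a rise of 2.10 ± 0.51 (edgeR adjusted p = 0.00802) that was lost without liver A. Rps20 had 28.9 and 32.8 RPKM in cystic EB libraries A and 1697 and 1664 in B, which were made with another protocol, so its comparisons are not read here. Mir703 differed likewise. The gene 1110004F10Rik, abundant in liver (171 and 212 RPKM), had 24.6 RPKM in E12.5 ysE, a fall of 2.92 ± 0.34 on the log2 scale (edgeR adjusted p = 0.000196). The noncoding RNA AI504432 was at 0 in E12.5 ysE and at least 113-fold lower than in liver (1.02 and 1.22 RPKM), and AI854517 had 0.090 RPKM in E12.5 ysE and 0 in liver.

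Of the 10 gene families counted, protocadherins had the highest share in domains, with 29 of 46 members in eligible windows (63.0%). Of the 29, 28 lay in 1 stretch of chromosome 18 (chr18:37400855-37841873), so the share rests on few windows. They are cell adhesion proteins, mostly clustered on chromosome 18 and used in neurons for self-recognition. Of the 34 that touched a domain, all could be tested, and 28 were lower in E12.5 ysE than in liver, 26 lower than in cystic EBs and 25 lower in E9.25 ysE than in mesoderm, where 23.7%, 21.1% and 16.9% of all transcripts were lower. None of the 34 was higher in these 3 comparisons by edgeR, while cystic EBs against liver gave 0 higher and 2 lower. Pcdhga1 had 0.204 RPKM in E12.5 ysE, 0.210 and 0.377 at E9.25, 3.79 and 4.27 in VYS mesoderm, 2.51 and 1.45 in liver, beside 3.87 to 5.04 in cystic EBs. The 17 domain genes of the gamma cluster share their last exons and so their reads, and the 11 of the beta cluster are separate genes of like sequence, so all 28 are uncertain as single genes. Of the 18 gamma genes that touched a domain, 18 were lower in each ysE comparison, and of the 11 beta genes 5, 5 and 3. With the 28 left out, the domain genes gave 22 higher and 95 lower against liver, 11 and 109 against cystic EBs and 9 and 90 against mesoderm, of 279 tested. Pcdh17, outside the clusters, had 0.002 RPKM in E12.5 ysE, 0.065 and 0.074 at E9.25, 1.53 and 1.52 in VYS mesoderm and 0.606 and 0.278 in liver.

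Of 32 neuronal adhesion genes, 11 touched a domain, of which 6 were lower than in liver, 7 lower than in cystic EBs and 6 lower in E9.25 ysE than in mesoderm, beside 23.7%, 21.1% and 16.9% of all transcripts. None of the 11 was higher in these comparisons by edgeR. Many of them are long, and 39.8% of all genes of 500 kb or more touched a domain. Only 3 of the 32 had at least 50% of their length in domain windows or in other eligible windows, and 1 of these, Ptprd, was in the domains. Robo2 had 0.006 RPKM in E12.5 ysE, 0.026 and 0.042 at E9.25, 0.498 and 0.254 in VYS mesoderm, 10.0 and 8.51 in liver, beside 0.589 to 5.32 in cystic EBs. Over all genes, 432 of 15723 in eligible windows (2.75%) lay in domains. Of beta-defensins 3 of 25 (12%) and of cytochromes P450 4 of 50 (8%) did, of olfactory receptors 5 of 203 (2.46%) and of zinc finger genes 1 of 266 (0.376%). Among keratins 0 of 67, among vomeronasal receptors 0 of 27, in the Ceacam and Psg family 0 of 17, among taste receptors 0 of 4, in the prolactin family 0 of 1 and among housekeeping genes 0 of 7 did. Many members of these families lie in windows that were not eligible.

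Reads of repeats in E9.25 ysE did not rise in the domain windows as a whole. The windows were chosen by methylation at E12.5, and the ysE repeat counts used here are of E9.25, a stage without bisulfite libraries. Repeat reads and methylation of ysE were thus not compared at the same stage. In E9.25 ysE against VYS mesoderm, 57 of 759 tested domain windows had more reads from repeats outside genes and 43 fewer, with 14.8% of all windows higher and 5.14% lower (edgeR, false discovery rate of 5%). Against cystic EBs, 86 were higher and 114 lower, with 18.8% and 12.46% of all. Both cystic EB libraries with repeat counts, d10 and d15, were of line B, so they stand for 1 ES cell line. The medians were -0.40 and -0.32 on the log2 scale, against 0.29 and 0.27 in the other windows. Without 1 library the counts fell as low as 0 and 0 against mesoderm (without mesoderm A) and 50 and 32 against cystic EBs (without ysE B), and on LINE reads alone they were 2 and 1, and 7 and 10.

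By class, levels are reads per kb of element and 1000000 reads on LINE, SINE, LTR and DNA elements outside genes. They are shares of those repeat reads, so more reads on a class lower the values of the others. LINEs of the domains had 0.295 and 0.239 in E9.25 ysE, 0.603 and 0.569 in VYS mesoderm and 0.639 and 0.646 in cystic EBs. The young L1Md families had 0.651 and 0.516, 1.41 and 1.31, and 1.54 and 1.55. As such shares, LINE reads were lowest in ysE, in domains as in other windows. The values in other windows were 0.602 and 0.538 in ysE and 0.896 to 0.992 in the other tissues. SINEs went the other way, with 0.968 and 0.912 in ysE, 0.587 and 0.655 in VYS mesoderm and 0.417 and 0.505 in cystic EBs, and in other windows 3.78 and 4.34, 2.08 and 2.19, and 1.18 and 1.37. The 89 IAPEz elements of the domains had 48.8 and 48.2 such reads in ysE, 35.6 and 32.8 in VYS mesoderm and 22.7 and 30.4 in cystic EBs. In the 2835 of other windows the order was the same, with 32.7 and 32.5, 24.6 and 23.0, and 16.5 and 21.3. These class levels are given as a description, with no test.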

How the data were processed

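Whole genome bisulfite sequencing, RNA-seq and H3K4me3 ChIP-seq of the mouse tissues were used as deposited. For bisulfite libraries the authors aligned with GSNAP 2012-12-12 to mm10, called with BisSNP and deposited, per CpG and strand, the percent of methylated reads and its number of reads. Methylated reads were recovered from both, which came out whole within 0.01 of a read, and summed in windows of 100 kb. For RNA-seq the authors deposited raw counts per RefSeq transcript and RPKM values, and raw counts per repeat element outside genes. H3K4me3 peaks were called by the authors with MACS 1.4.2 against input and deposited with a score, -10 log10 of the p-value. The authors' exon count files (6) were not used here. One window among the lowest in liver is not reported here. The versions come from the submitters' processing notes and the methods.

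Windows were compared with limma 3.58.1 on log2((methylated + 0.5)/(unmethylated + 0.5)) in the 4 libraries of cystic EBs and liver. Transcript counts of all 11 libraries (40453779 to 169981821 per library) were fitted in 5 tissue groups with edgeR 4.0.16 (TMM, filterByExpr, quasi-likelihood test) in R 4.3.3, the 4 cystic EB libraries as 1 group, and repeat counts per window (6 libraries, 21776479 to 37061536 reads) likewise. P-values were adjusted by Benjamini-Hochberg over all features. As replicates are whole litters or cultures under 1 label, p-values measure the spread between these samples, which may be technical. The 4 cystic EB libraries are lines A and B, each at d10 and d15, and were fitted as independent, with no term for line. Lines A and B also differ in protocol, so the spread of this group mixes line, day and protocol. Correlations of deviations between same-numbered samples were -0.103 to 0.04. With 2 libraries per group such a correlation cannot tell whether the numbers pair the samples, and the main fits used no pairing. A gene is represented by its transcript of highest mean count, and 29041 of 30455 transcripts had coordinates. Named genes are the 5 domain genes that rose and the 5 that fell most, libraries not overlapping, in E12.5 ysE against liver and in E9.25 ysE against mesoderm, the 5 of highest RPKM in E12.5 ysE, liver and cystic EBs, and genes of the longest runs (2 of 800 kb and, as the third place was tied, 3 of 600 kb). A fold against a group with 0 counts is a bound from 3 counts over the group, not TMM scaled. Wilson intervals are at 95%. The domains, gene lists and miRNAs were chosen with earlier results of these data known. The tests were tested on simulated data, with less spread between libraries for genes than in these data and without features of low count. Planted window differences were larger than the median seen. The comparisons with E12.5 ysE were not simulated, so the simulation says nothing of those calls or of genes at 0. Alternatives were other read minimums, thresholds and window sizes, both ysE libraries below 50%, other normalizations and filters, DESeq2 1.42.0, the replicate block and leaving out each library. Those added after seeing the data were minus-strand reads, leaving out 5 chromosomes and a crossed block. Other values were computed with Python 3.11.15, pandas 2.3.3, numpy 2.4.6 and scipy 1.17.1.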

Additional observations from a re-analysis of the deposited data

Results flagged for a closer look

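Among 32 named genes, 3 had 1 cystic EB library far from the other 3, and chance alone sets about 1 in 20 such groups apart. In d10 replicate A, Bhlhe22 stood at 0.278 RPKM, Fam19a2 at 0.359 RPKM and Slc5a9 at 0.112 RPKM, each above its other cystic EB values. The gap between domain and other windows had opposite signs in the tissues, with medians of -3.70 and -3.78 points in liver (CxF and FxC) and 0.85 and 0.69 points in cystic EBs. This difference between liver and cystic EBs was not tested, and it turned on windows with an H3K4me3 peak, since without them both tissues had negative gaps.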

How the results depend on the processing

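The number of domain windows, 1025, followed the settings of the rule. It was 4303 with at least 100 reads and 4 with at least 400, 421 below 45% and 1999 below 55%, 499 with both ysE libraries below 50%, 31 in windows of 50 kb and 2107 in windows of 200 kb. From 1 ysE library it was 754 (CxF alone) or 1809 (FxC alone). Liver methylation in the domains, 75.8%, was 78.1% with at least 400 reads, and that in cystic EBs, 86.2%, was 82.5% in windows of 50 kb. The LINE ratio of 1.82 was 3.04 with at least 400 reads and 2.84 from CpGs outside repeats, and the gene ratio of 0.475 turned to 2.13 with at least 400 reads (4 windows) and 1.77 in windows of 50 kb (31 windows). Of the 389 windows higher in cystic EBs than in liver, the cross as replicate block left 2. At least 400 reads left 1 and a fit with ysE 227, and minus-strand reads gave 740. Over all 13526 eligible windows the counts were 1941 in the main fit, 2 with the block, 1023 with ysE and 4840 with minus-strand reads. Leaving out a library gave 0 to 462. Genes with any overlap gave 222, 234 and 199 lower genes in the ysE comparisons, 15 higher in E9.25 ysE and 85 lower in cystic EBs than in liver. Higher genes in E12.5 ysE against cystic EBs, 11, were 4 in a fit of those groups alone and 7 to 11 without a library. In E9.25 ysE against mesoderm, leaving out a library gave 1 to 10 higher and 69 to 116 lower genes, and in cystic EBs against liver 35 to 82 higher. Without the 5 chromosomes, chosen after seeing the data, 572 windows were left, 210 of them higher in cystic EBs, and the higher and lower genes numbered 10 and 70 (against liver), 3 and 76 (cystic EBs), 4 and 66 (mesoderm), and 41 and 20 (cystic EBs against liver). Repeat windows then numbered 26 higher and 24 lower against mesoderm and 41 and 54 against cystic EBs. On LINE reads alone they were 2 and 1, and 7 and 10. Against mesoderm DESeq2 called 80 windows lower and the replicate block 9, and leaving out a library gave 0 to 58 higher and 0 to 27 lower. Against cystic EBs it gave 50 to 69 higher and 32 to 84 lower. The share of genes transcribed in E12.5 ysE, 7.64%, was 20.1% at 0.1 RPKM. The causes were not tested.

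With the replicate block, E9.25 ysE against mesoderm gave 12 higher and 122 lower domain genes of 204 tested, and the crossed block, added after seeing the data, 12 and 131. Of 82 called comparisons of named genes, 0 changed direction in 1177 settings and 156 settings lost the call, 24 of them without mesoderm A. Depth limited the domains to windows of 200 reads and gave single promoters too few reads to read.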
